A study of Mus musculus with 4 samples.

Results

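The platelet-derived growth factor (PDGF) genes of the mouse ovary were followed here from the cells that transcribe the ligands to the cells that transcribe the receptors. The set holds 6 of the 32285 genes in the count matrices, taken by name, with 4 ligand genes (Pdgfa, Pdgfb, Pdgfc and Pdgfd) and 2 receptor genes (Pdgfra and Pdgfrb). All 6 had unique molecular identifiers (UMIs, each standing for 1 captured RNA molecule) in all 4 libraries, and the cells kept held 14156 UMIs of Pdgfa, 4496 of Pdgfb, 30269 of Pdgfc, 47274 of Pdgfd, 30936 of Pdgfra and 11884 of Pdgfrb. Ovaries of 8-week-old female littermates had been dissociated and sequenced on the 10x Genomics 3′ platform, with 2 libraries per genotype. The Fosl2F/F mice carried Fosl2flox/flox alleles, with LoxP sites around exons 2 to 4 of Fosl2, which encodes an AP-1 transcription factor. The Fosl2cKO mice carried the same alleles together with Cyp19a1-Cre, in which the promoter of the aromatase gene drives the recombinase in granulosa cells (GCs). The floxed alleles are therefore shared by both groups, and no group with the Cre alone was analysed here. The smears of the mice used were in estrus.

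After filtering, Fosl2F/F 1 and 2 had 8150 and 19575 cells and Fosl2cKO 1 and 2 had 6760 and 7053, with 104303269 to 111314200 UMIs per library. Library Fosl2F/F 2 stood apart, with a median of 3655 UMIs per cell against 11177 to 12465 in the other 3, and values of the classes were therefore scaled to the UMIs of the class in each library, as counts per 1000000 (CPM). The libraries shared 10 to 38 cell barcodes per pair, at most 0.518% of the smaller library. Fosl2, the targeted gene, was at 161 and 167 against 167 and 115 CPM in GC-like cells (log2 difference -0.25 ± 0.20, adjusted p = 1.0, edgeR quasi-likelihood test), so its level in these cells as a whole did not separate the groups. Of the GC subclasses named below, both Fosl2cKO libraries were lower in mitotic-antral-like cells (107 and 119 against 93.7 and 81.7 CPM), mitotic-like cells and GC cluster 4. The other subclasses overlapped, and none passed. Over GC subclasses 13.8% of all pairs of gene and subclass were lower in this way. A count per gene does not distinguish the deleted exons from the others, and it therefore checks the label of the genotype in neither direction. In what follows, a direction is given for the libraries labelled Fosl2cKO. The sample size given for each group equals its number of libraries, which is 1 animal per library where it counts animals, and the p-values measure the spread between these libraries.

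Clusters were named from marker genes, and no PDGF gene was among the 3000 features used to cluster or among the markers. The 15 classes with at least 20 cells in every library were tested; oocyte-like cells (17 to 73 per library) were not. The summed markers of a named class lay above those of all other classes in every library, except against cluster 2. Its theca markers (4332 to 5351 against 3024 to 5987 CPM) exceeded those of theca-like cells in every library but Fosl2F/F 1. Its luteal markers exceeded those of luteal-like cells in Fosl2cKO 1. Clusters 1 and 12 lay below the stromal-like and the pericyte or smooth muscle-like class within each library, with ranges over libraries that met. Clusters 1, 2 and 12 matched markers of more than 1 class and are called by number. Cluster 1 was led by Enpep, Hhip and Asb4, with theca and stromal markers together, cluster 2 by Abcb1b, Hao2 and Star, with theca and luteal markers, and cluster 12 by the contractile genes Myh11, Tagln and Acta2, with stromal markers. GC-like cells were divided into 7 subclasses, of which 5 were named. GC cluster 4 (Amh and Cited1) and GC cluster 7 (Pcdh9, Rrad and Dgkb) stayed without a name, and GC cluster 7 was shallow, with a median of 2728 UMIs. The mitotic-antral-like subclass was led by Cox4i2, Ndufa4l2 and Ldha. It took its name from the mitotic-antral marker list, which it held at 1178 to 3019 CPM in sum. Its summed mitotic markers were at 225 to 406 CPM, against 2515 to 2725 CPM in mitotic-like cells and 825 to 1046 CPM in all GC-like cells. The name is thus that of the list and does not stand for dividing cells.

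PDGFs are secreted dimers that act on a pair of receptor tyrosine kinases. PDGF-A, PDGF-B and PDGF-C bind the alpha receptor encoded by Pdgfra, and PDGF-B and PDGF-D bind the beta receptor encoded by Pdgfrb. PDGF-A and PDGF-B are processed inside the cell, whereas PDGF-C and PDGF-D leave the cell as latent proteins whose CUB domain has to be cut off by extracellular proteases. In most vascular beds the endothelium makes PDGF-B and the pericytes around it carry the beta receptor, and in the ovary the alpha receptor is known as a gene of the theca and the stroma.

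Each gene had a different class at its peak, and ligand and receptor peaks fell in different classes. Pdgfa was highest in epithelial-like cells, Pdgfb in endothelial-like cells, Pdgfc in cluster 12, GC-like and luteal-like cells, Pdgfd in cluster 2 and endothelial-like cells, Pdgfra in stromal-like cells and Pdgfrb in pericyte or smooth muscle-like cells. NK or T-like cells were taken as cells that lack these genes, and they held 5.96 CPM of Pdgfa, 16.1 of Pdgfb, 6.42 of Pdgfc, 10.9 of Pdgfd, 4.85 of Pdgfra and 1.59 of Pdgfrb. For Pdgfb they could not stand for background RNA, since theca-like cells of the same libraries held 0.555 CPM, 29.1 times less. For the other 5 genes the NK or T-like mean was 0.908 to 2.25 times that of the lowest class with at least 10 UMIs. A class counted as above the NK or T-like level where its lowest library exceeded the highest NK or T-like value, both in CPM and in the share of cells with a UMI. For Pdgfrb that highest value, 2.64 CPM, was 1 UMI in Fosl2F/F 2. By that rule, over 15 other classes with oocyte-like cells included, Pdgfa was above that level in 12, Pdgfd in 11, Pdgfc in 7, Pdgfrb in 6 and Pdgfra in 4. For Pdgfb theca-like cells, chosen after their values were seen, were used as the reference, and 10 of 14 classes lay above them in CPM, the exceptions being stromal-like and B lymphocyte-like cells and clusters 1 and 12. These are comparisons of 1 gene over classes; UMI levels of different genes were not compared, since 3′ counts differ between genes in capture.

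Pdgfa (ENSMUSG00000025856, GRCm38 chr5:138976014-138997370, minus strand) encodes the chain that signals through the alpha receptor alone. Its promoter is shown because it was the most GC-rich of the windows examined, at 72.4% G and C against a median of 52.4% over all promoter windows. The sequence below is the 250 bases before a RefSeq start (GRCm38.p6, chr5:138994945-138995194, minus strand), with the GC boxes (GGGCGG on either strand) in capitals.
Pdgfa promoter: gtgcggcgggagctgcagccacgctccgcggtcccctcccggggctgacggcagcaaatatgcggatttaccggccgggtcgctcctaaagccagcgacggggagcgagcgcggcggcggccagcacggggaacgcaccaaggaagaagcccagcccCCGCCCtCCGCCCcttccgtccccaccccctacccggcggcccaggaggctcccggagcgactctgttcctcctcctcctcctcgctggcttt
A GC box was present in 32.74% of 32851 promoter windows of the same length. A second RefSeq start of Pdgfa (chr5:138994282-138994531) had 66.4% G and C and 1 GC box.

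Epithelial-like cells, marked by the genes of the ovarian surface, held 213 and 179 CPM (Fosl2F/F) and 219 and 220.0 CPM (labelled Fosl2cKO) of Pdgfa, a mean of 208 ± 19.2 (SD, n = 4). The 4 values lay above every value of every other class. Luteal-like cells came next at 176 and 52.2 against 63.7 and 156 CPM, and these 4 values did not separate by genotype. The luteal-like class joined 2 clusters whose shares differed between libraries, cluster 8 at 160.5, 22.7, 50.5 and 153 CPM and cluster 19, led by the progesterone-degrading enzyme gene Akr1c18, at 177, 169, 291 and 182 CPM, in the order Fosl2F/F 1 and 2, Fosl2cKO 1 and 2. Pericyte or smooth muscle-like cells (90.7 ± 35.9 CPM) and cluster 2 (68.0 ± 19.9 CPM) followed, with ranges that overlapped those of luteal-like cells and of each other. Lower levels, from 15.6 to 40.8 CPM, were found in lymphatic endothelial-like, macrophage-like, endothelial-like, stromal-like, theca-like and GC-like cells and in clusters 1 and 12, each overlapping its neighbours in the order. Oocyte-like cells had 27 UMIs of Pdgfa in all, in only 2 of the libraries. Dendritic-like cells had 5.09 CPM, and B lymphocyte-like cells had 0 UMIs in 156 cells, where 3 UMIs would have been 8.06 CPM.

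Among GC-like cells, the mean of Pdgfa was highest in the cumulus-like subclass, the GCs that surround the oocyte. It was 43.4 ± 2.35 CPM (SD, n = 4), from 40.3 and 44.5 CPM (Fosl2F/F) and 42.8 and 45.8 CPM (labelled Fosl2cKO). GC cluster 7 held 16.8 and 27.6 against 67.9 and 22.9 CPM. Cumulus-like cells exceeded it in 3 of 4 libraries with overlapping ranges, so the order of these subclasses is not resolved. Mural-like cells, which line the follicle wall, held 12.3 ± 2.43 CPM and mitotic-like cells 8.71 ± 0.822 CPM. The mural-like level was lower than the cumulus-like level, at a log2 difference of -1.81 ± 0.20 (edgeR adjusted p = 3.85e-08), and so was the mitotic-like level, at -2.25 ± 0.20 (edgeR adjusted p = 4.16e-10). The ranges of the 4 libraries did not meet in either case.

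Pdgfb (ENSMUSG00000000489, GRCm38 chr15:79995874-80014977, minus strand) encodes the chain that binds both receptors. Endothelial-like cells held 92.5 and 77.6 CPM (Fosl2F/F) and 118 and 153 CPM (labelled Fosl2cKO), with a mean of 110.1 ± 32.8 (SD, n = 4), and both values of the libraries labelled Fosl2cKO lay above both others. No other class came near this level. Macrophage-like cells, which carried Pdgfb at 25.2 and 19.8 against 30.5 and 37.1 CPM, were the next class, and they exceeded the NK or T-like cells (12.5 and 23.7 against 13.1 and 15.2 CPM, from 43 UMIs) in 3 of the 4 libraries, the exception being Fosl2F/F 2. GC-like cells held 11.9 and 10.6 against 14.3 and 12.8 CPM, from 2595 UMIs. Theca-like cells held 0.367 to 0.781 CPM, and the log2 difference of GC-like from theca-like cells was 4.46 ± 0.39 (edgeR adjusted p = 4.53e-14), past the threshold in all 13 alternatives. Luteal-like cells were also higher than theca-like cells, at 3.74 ± 0.42 (edgeR adjusted p = 1.22e-10). Stromal-like and cluster 1 cells, with means of 0.615 and 0.683 CPM, lay as low as theca-like cells. At 2000 UMIs per cell, 2.19% ± 0.326 of GC-like and 0.0924% ± 0.107 of theca-like cells held a UMI of Pdgfb (SD, n = 4), and 14.5% and 0.924% did without thinning. Within GC-like cells the mean was highest in atretic-like cells (33.1 and 9.47 against 22.2 and 14.9 CPM), the GCs of follicles in regression. They exceeded GC cluster 4 (23.3 and 17.5 against 16.6 and 17.2 CPM) in 2 of 4 libraries with overlap, so this order is not resolved. The mean was lowest in mural-like cells (1.47 and 5.71 against 8.07 and 3.04 CPM). The mural-like level was lower than the cumulus-like level, at a log2 difference of -1.78 ± 0.39 (edgeR adjusted p = 3.57e-04), and lower than the atretic-like level, at -2.42 ± 0.38 (edgeR adjusted p = 2.62e-05), which was -1.49 without Fosl2F/F 1.

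Pdgfc (ENSMUSG00000028019, GRCm38 chr3:81036416-81214040, plus strand) encodes a latent ligand of the alpha receptor. Its promoter is shown because Pdgfc was the PDGF gene with the largest part of its UMIs in GC-like cells, where Cyp19a1-Cre acts. The 250 bases before its RefSeq start (GRCm38.p6, chr3:81036166-81036415, plus strand) held 50.8% G and C, and none of the letters searched was found on either strand, so the line has no capitals. The AP-1 letters were TGANTCA. The CRE letters were TGACGTCA. GGGCGG and TATAAA stood for the GC and TATA boxes.
Pdgfc promoter: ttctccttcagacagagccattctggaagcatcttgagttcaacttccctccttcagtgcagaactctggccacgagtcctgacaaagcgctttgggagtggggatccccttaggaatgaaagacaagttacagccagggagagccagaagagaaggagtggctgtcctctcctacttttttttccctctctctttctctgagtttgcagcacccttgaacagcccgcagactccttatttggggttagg
AP-1 letters were present in 6.75% and CRE letters in 1.55% of the 32851 windows, and in 0 of the 5 windows used, which belong to 4 PDGF genes. That count concerns only these letters in these windows.

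Cluster 12, GC-like and luteal-like cells formed the upper group for Pdgfc. GC-like cells held 95.9 and 128 against 97.5 and 134 CPM, cluster 12 163 and 74.4 against 74.4 and 154 CPM and luteal-like cells, from clusters 8 and 19, 140.0 and 71.1 against 76.4 and 127 CPM. The ranges of these 3 overlapped, so their order is not resolved. Macrophage-like (52.0 ± 18.6 CPM) and epithelial-like cells (46.9 ± 12.9 CPM) were intermediate, and epithelial-like cells lay above stromal-like cells (25.0 ± 4.99 CPM) in all 4 libraries with no overlap. Theca-like cells, at 6.26 ± 1.04 CPM, were at the level of NK or T-like cells. The log2 difference of GC-like from theca-like cells was 4.23 ± 0.27 (edgeR adjusted p = 7.52e-19), that of luteal-like from theca-like cells 4.08 ± 0.27 (edgeR adjusted p = 5.73e-18) and that of stromal-like from theca-like cells 2.04 ± 0.27 (edgeR adjusted p = 1.40e-08).

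The GC-like level of Pdgfc was far from uniform. Cumulus-like cells held 301 and 249.6 CPM (Fosl2F/F) and 186 and 268 CPM (labelled Fosl2cKO) and GC cluster 4, with the Amh of growing follicles, held 187 and 202 CPM (Fosl2F/F) and 157 and 168 CPM (labelled Fosl2cKO). Mural-like cells held 19.1 and 33.5 CPM (Fosl2F/F) and 41.5 and 48.7 CPM (labelled Fosl2cKO). The lowest cumulus-like value was over 3 times the highest mural-like value, and the log2 difference of mural-like from cumulus-like cells was -2.84 ± 0.29 (edgeR adjusted p = 1.21e-08). Mitotic-like (91.1 ± 18.2 CPM) and atretic-like cells (88.8 ± 39.1 CPM) lay between. Mitotic-like cells were lower than cumulus-like cells, at a log2 difference of -1.44 ± 0.27 (edgeR adjusted p = 5.67e-05), and mural-like cells were lower than atretic-like cells, at -1.44 ± 0.29 (edgeR adjusted p = 3.91e-04), a difference of -0.90 without Fosl2F/F 1, under the threshold of 1. With each cell thinned to 2000 UMIs, 37.7% ± 4.76 of cumulus-like cells and 6.29% ± 2.55 of mural-like cells held a UMI of Pdgfc (SD, n = 4), against 1.47% ± 0.900 of NK or T-like cells. Without thinning the shares were 77.1%, 29.4% and 1.62%, at median depths of 5336, 10382 and 2843 UMIs.

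Pdgfd (ENSMUSG00000032006, GRCm38 chr9:6168584-6378850, plus strand) encodes a latent ligand of the beta receptor. Its promoter is the only one of the 5 windows with TATA letters, which 12.37% of all windows held, and is shown for that reason. The 250 bases before its RefSeq start (GRCm38.p6, chr9:6168236-6168485, plus strand) are given with TATAAA in capitals.
Pdgfd promoter: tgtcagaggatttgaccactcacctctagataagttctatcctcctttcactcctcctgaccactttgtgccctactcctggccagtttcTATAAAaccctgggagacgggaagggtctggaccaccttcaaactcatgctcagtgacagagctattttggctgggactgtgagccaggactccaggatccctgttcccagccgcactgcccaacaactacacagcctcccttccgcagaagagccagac
The window had 53.6% G and C.

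Cluster 2, the cells with Abcb1b, Hao2 and the cholesterol transport gene Star, held the most Pdgfd at 321 and 319 CPM (Fosl2F/F) and 354 and 517 CPM (labelled Fosl2cKO), a mean of 378 ± 94.2 (SD, n = 4). Endothelial-like cells held 274 and 313 CPM (Fosl2F/F) and 233 and 310.5 CPM (labelled Fosl2cKO). Every value of cluster 2 was above every endothelial-like value, and every endothelial-like value was above every luteal-like value (clusters 8 and 19, 112 and 89.8 against 211 and 89.4 CPM). Luteal-like, epithelial-like (114 ± 33.4 CPM), lymphatic endothelial-like (114 ± 46.9 CPM), pericyte or smooth muscle-like (101 ± 61.4 CPM), GC-like (84.9 ± 10.1 CPM) and theca-like cells (83.6 ± 16.7 CPM) followed with overlapping ranges. Theca-like values all lay above those of stromal-like cells (53.3 ± 6.55 CPM), with a log2 difference of stromal-like from theca-like cells of -0.64 ± 0.26 (95% interval -1.16 to -0.12), which did not reach the threshold of 1. Macrophage-like cells (5.32 CPM) were below NK or T-like cells, so Pdgfd was not shared by all the classes that held Pdgfc. Endothelial-like cells were higher than pericyte or smooth muscle-like cells by a log2 difference of 1.50 ± 0.28 (edgeR adjusted p = 1.85e-05). The difference of GC-like from theca-like cells was 0.043 ± 0.25 (95% interval -0.47 to 0.55), and that of luteal-like from theca-like cells 0.60 ± 0.26 (95% interval 0.085 to 1.12), neither past the threshold.

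Among GC-like cells Pdgfd followed another order than Pdgfa and Pdgfc. GC cluster 7 had the highest mean (332 ± 109 CPM) and was above atretic-like cells in 4 of 4 libraries, with ranges that met, atretic-like (140.3 ± 59.0 CPM), cumulus-like (128 ± 21.3 CPM) and mural-like cells (122 ± 29.95 CPM) overlapped, and GC cluster 4 (39.8 ± 12.9 CPM), mitotic-like (38.1 ± 4.46 CPM) and mitotic-antral-like cells (14.8 and 16.2 against 21.2 and 28.4 CPM) were lower. The mural-like minus cumulus-like log2 difference was -0.033 ± 0.21 (95% interval -0.47 to 0.40), and it was not past the threshold. Mitotic-like cells were lower than cumulus-like cells, at -1.68 ± 0.21 (edgeR adjusted p = 2.23e-07). At 2000 UMIs per cell, 48.4% ± 8.03 of the cells in cluster 2 and 36.9% ± 1.84 of endothelial-like cells held a UMI of Pdgfd, against 1.84% ± 1.16 of NK or T-like cells. The unthinned shares were 82.8%, 60.4% and 2.33%, at median depths of 7197, 4518 and 2843 UMIs.

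**Figure D1:**
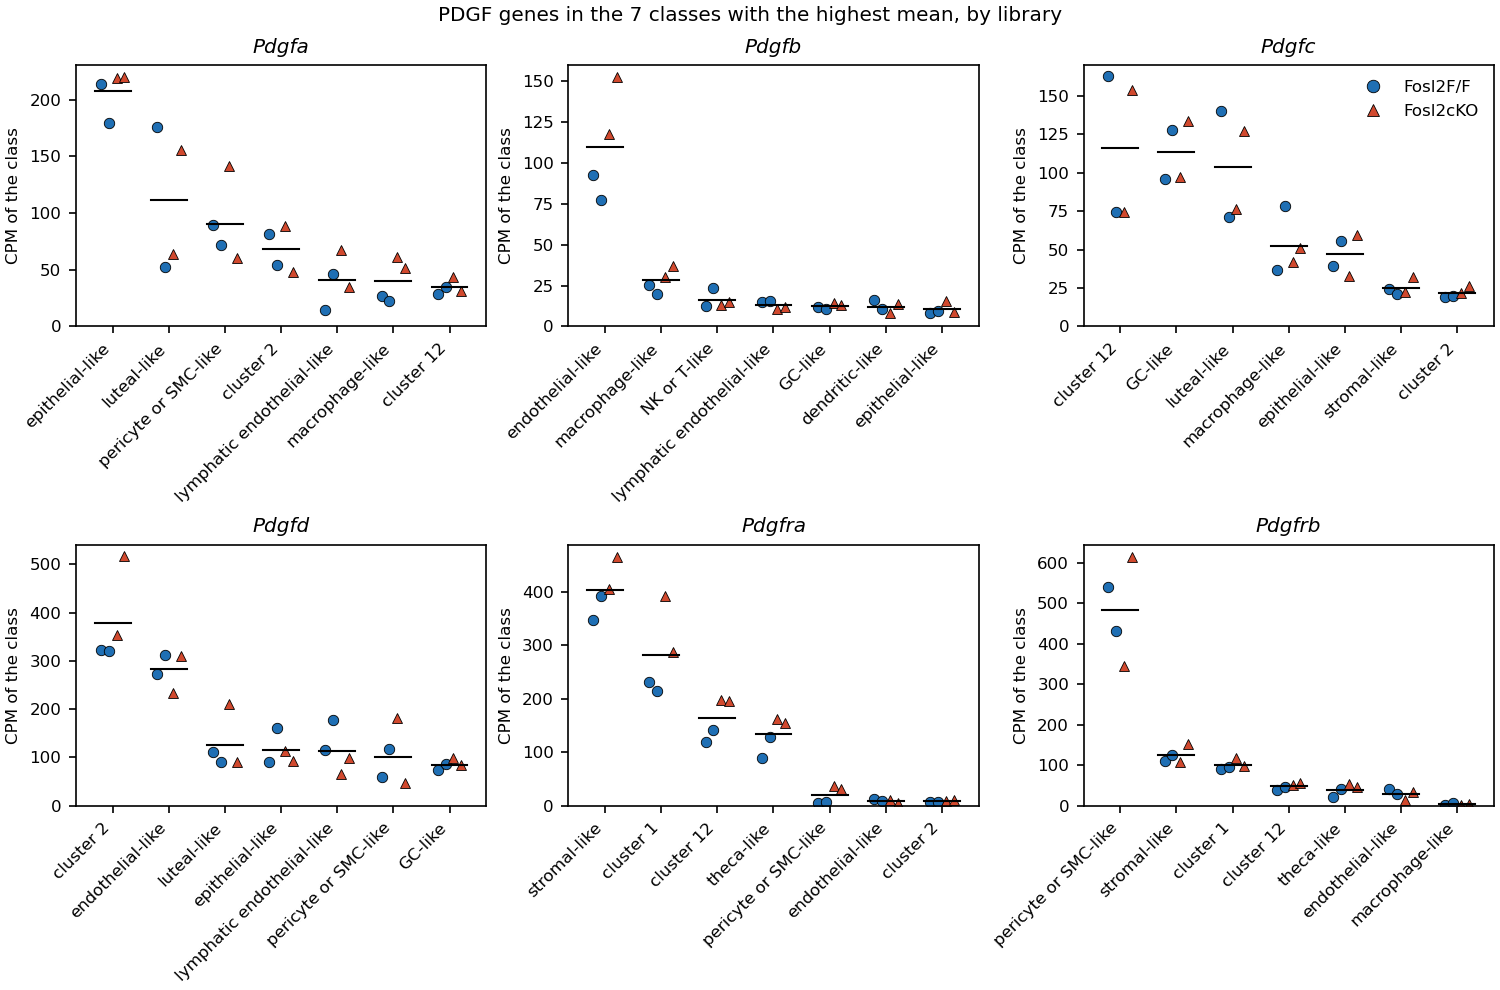
Level in CPM (vertical axis) of each PDGF gene in the 7 classes where its mean was highest (horizontal axis), with 1 point per library (blue circles, Fosl2F/F; red triangles, libraries labelled Fosl2cKO) and a bar at the mean. The 4 values of Pdgfa in epithelial-like cells (179 to 220.0 CPM), of Pdgfb in endothelial-like cells (77.6 to 153 CPM) and of Pdgfrb in pericyte or smooth muscle-like cells (344 to 614 CPM) sit above all values of the next class, and those of Pdgfc in its 3 leading classes overlap.

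Pdgfra (ENSMUSG00000029231, GRCm38 chr5:75152292-75198215, plus strand) encodes the alpha receptor. The promoter is shown because Pdgfra had the largest difference of all member contrasts, between luteal-like and theca-like cells. The 250 bases before its RefSeq start (GRCm38.p6, chr5:75152001-75152250, plus strand) held 54.4% G and C and none of the letters searched, so the line has no capitals.
Pdgfra promoter: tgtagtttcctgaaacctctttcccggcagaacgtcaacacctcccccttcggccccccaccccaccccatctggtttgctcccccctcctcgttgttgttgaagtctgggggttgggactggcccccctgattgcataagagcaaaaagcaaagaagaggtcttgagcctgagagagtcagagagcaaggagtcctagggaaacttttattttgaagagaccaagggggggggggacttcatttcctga
Windows for Pdgfb and Pdgfrb were not used here.

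Stromal-like cells held the most Pdgfra at 349 and 392 CPM (Fosl2F/F) and 406 and 466 CPM (labelled Fosl2cKO), with a mean of 403 ± 48.5 (SD, n = 4). Cluster 1 followed at 231 and 215 against 392 and 288 CPM, and its range met that of stromal-like cells. Cluster 12 held 119 and 143 against 197 and 197 CPM and theca-like cells held 89.1 and 129 against 163 and 155 CPM, and these 4 classes were the only ones of 15 above the NK or T-like level in all libraries. Theca-like cells were lower than stromal-like cells, with a stromal-like minus theca-like log2 difference of 1.63 ± 0.21 (edgeR adjusted p = 9.67e-09), which was 2.52 with coarser clusters. The theca-like class joined 2 clusters with different receptor levels. Cluster 10, with Cyp17a1 of androgen synthesis, held 48.2, 60.0, 119.8 and 72.6 CPM of Pdgfra, and cluster 15, with Enpep, Hhip and the cycling gene Mki67, held 183, 225, 244 and 256 CPM, in the order Fosl2F/F 1 and 2, Fosl2cKO 1 and 2. The theca-like class as a whole held the 9 stromal markers at a summed level of 2777 to 4132 CPM, and the part of those cells in its Pdgfra was not tested.

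The GCs and the steroid-producing cells of the corpus luteum and of cluster 2 held little Pdgfra. GC-like cells had 3.65 CPM of Pdgfra, luteal-like cells 3.15 CPM and cluster 2 8.23 CPM, levels near the 4.85 CPM of NK or T-like cells. GC-like cells were lower than theca-like cells, at a log2 difference of -5.15 ± 0.25 (edgeR adjusted p = 1.73e-23), and so were luteal-like cells, at -5.28 ± 0.28 (edgeR adjusted p = 7.92e-22). Pericyte or smooth muscle-like cells were lower than stromal-like cells, at -4.33 ± 0.28 (edgeR adjusted p = 5.94e-18). The difference was -2.93 without integration, -2.44 with coarser and -2.41 with finer clusters. Over all 13 alternatives it ranged from -5.88 to -2.41, each past the threshold. At 2000 UMIs per cell, 50.7% ± 2.68 of stromal-like and 19.5% ± 4.75 of theca-like cells held a UMI of Pdgfra, against 0.533% ± 0.486 of NK or T-like cells. Without thinning these shares were 71.8%, 60.8% and 0.845%. The median depth per library was 2150 to 7693 UMIs in stromal-like, 5733 to 18090.5 in theca-like and 1358 to 3417 in NK or T-like cells.

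Pdgfrb (ENSMUSG00000024620) encodes the beta receptor. Pericyte or smooth muscle-like cells, the mural cells of the vessels, held 541 and 431 CPM (Fosl2F/F) and 344 and 614 CPM (labelled Fosl2cKO), a mean of 483 ± 119 (SD, n = 4). All 4 values lay above those of stromal-like cells (109.9 and 126 against 108 and 152 CPM), and the log2 difference of pericyte or smooth muscle-like from stromal-like cells was 1.96 ± 0.21 (edgeR adjusted p = 4.03e-11). Cluster 1 (101 ± 12.4 CPM) overlapped stromal-like cells and lay above cluster 12 (48.3 ± 7.13 CPM). Theca-like cells held 20.7 and 40.02 against 53.4 and 44.8 CPM, lower than stromal-like cells with a stromal-like minus theca-like log2 difference of 1.67 ± 0.21 (edgeR adjusted p = 2.69e-09). That difference was 4.83 with coarser clusters and 1.50 to 1.86 in the other alternatives. Within the theca-like class, Pdgfrb was at 3.60 ± 0.871 CPM in cluster 10 and 98.7 ± 38.6 CPM in cluster 15 (SD, n = 4), so it lay almost wholly in the latter. Within the stromal-like class, cluster 16 (Cxcl14 and Mgp) held 293 ± 98.3 CPM and cluster 0 held 89.2 ± 17.3 CPM.

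GC-like (1.85 ± 0.478 CPM), luteal-like (2.40 ± 0.501 CPM), cluster 2 (1.97 ± 0.856 CPM) and NK or T-like cells (1.59 ± 0.731 CPM) each held few UMIs of Pdgfrb. The GC-like minus theca-like log2 difference was -4.38 ± 0.24 (edgeR adjusted p = 7.42e-22), which was -1.02 with coarser clusters (edgeR adjusted p = 0.000727), and the luteal-like minus theca-like difference was -3.94 ± 0.27 (edgeR adjusted p = 1.15e-17), which was -0.51 with coarser clusters (edgeR adjusted p = 0.143). Endothelial-like cells held 41.0 and 29.1 against 14.3 and 33.0 CPM, and the summed level of the pericyte markers in the same cells was 1109 and 602 against 613 and 716 CPM, where pericyte or smooth muscle-like cells had 9466 to 22137 CPM. With more doublets removed the endothelial-like level of Pdgfrb was 19.1 and 8.65 against 10.1 and 21.2 CPM, and the share of Pdgfrb UMIs in endothelial-like cells went from 2.28% to 1.07%, where that in pericyte or smooth muscle-like cells went from 13.8% to 13.6%. The part of doublets in the endothelial-like level was not tested. At 2000 UMIs per cell, 56.5% ± 12.5 of pericyte or smooth muscle-like cells, 18.0% ± 2.84 of stromal-like cells and 0.389% ± 0.283 of NK or T-like cells held a UMI of Pdgfrb. Without thinning the shares were 74.9%, 35.3% and 0.456%, and the pericyte or smooth muscle-like cluster had a median of 3082 UMIs against 2843 for NK or T-like cells.

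The vascular pair of classes differed in 5 of the 6 genes. Between endothelial-like and pericyte or smooth muscle-like cells, 22.8% of all genes passed an adjusted p under 0.05 and a log2 difference over 1. Pdgfb was higher in endothelial-like cells by a log2 difference of 3.88 ± 0.37 (edgeR adjusted p = 1.20e-12) and Pdgfrb in pericyte or smooth muscle-like cells, at an endothelial-like minus pericyte difference of -4.08 ± 0.24 (edgeR adjusted p = 8.36e-20). Pdgfa was lower in endothelial-like cells, at -2.01 ± 0.33 (edgeR adjusted p = 1.36e-06). The difference for Pdgfra, -1.22 ± 0.37 (edgeR adjusted p = 0.00674), was not stable and passed in 9 of 13 alternatives. Among those that did not pass, it was -0.89 without Fosl2cKO 1, -0.81 without Fosl2cKO 2 and -0.21 with more doublets removed, each with an edgeR adjusted p over 0.05. It was -2.79 to -3.23 without integration and with coarser or finer clusters, each past the threshold. The Pdgfc difference was -0.77 ± 0.41 (95% interval -1.60 to 0.049). At 2000 UMIs per cell 16.1% ± 6.64 of endothelial-like cells held a UMI of Pdgfb, against 2.74% ± 1.17 of NK or T-like cells (42.9% and 4.43% without thinning, at median depths of 4518 and 2843 UMIs).

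In the other class contrasts the members passed in numbers to be read against the share of all genes that passed. Stromal-like against theca-like cells gave 3 of 6 members, all higher in stromal-like cells, with 19.3% of genes. Pericyte or smooth muscle-like against stromal-like cells gave 4 of 6, with 15.6% of genes; beside the receptors, Pdgfa was higher in pericyte or smooth muscle-like cells by a log2 difference of 2.29 ± 0.30 and Pdgfb by 3.60 ± 0.59 (edgeR adjusted p = 3.18e-08 and 2.40e-06), the latter from 25 UMIs in the pericyte or smooth muscle-like cells. GC-like against theca-like cells gave 4 of 6, with 24.2% of genes, namely Pdgfc and Pdgfb higher and both receptors lower in GC-like cells. Luteal-like against theca-like cells gave 5 of 6, with 26.7% of genes, namely Pdgfa (2.78 ± 0.29), Pdgfb and Pdgfc higher and both receptors lower. Among GC subclasses, mural-like against cumulus-like cells gave 3 of 6 with 20.7% of genes, mural-like against atretic-like cells 2 of 6 with 10.6%, and mitotic-like against cumulus-like cells 3 of 6 with 24.4%. All of these subclass differences were in ligand genes and in the direction of the lower level in the class named first. The contrasts with mural-like cells could not be run without integration, where that cluster had too few cells in some libraries. In all, 29 of 48 member contrasts passed.

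GC-like cells, the largest class captured, held the most Pdgfc and Pdgfb UMIs in all 4 libraries. For Pdgfa and Pdgfd they led on the mean but not in every library. GC-like cells held 76.1% ± 6.58 of the Pdgfc UMIs per library (SD, n = 4), 57.3% ± 14.3 of Pdgfb, 38.4% ± 13.6 of Pdgfd and 25.5% ± 7.43 of Pdgfa. Endothelial-like cells, with a far higher level of Pdgfb in CPM, held 23.9% ± 11.3 of its UMIs. For Pdgfd, GC-like cells led in Fosl2F/F 1 (58.5% against 17.8% in cluster 2) and narrowly in Fosl2cKO 2 (33.74% against 33.66%), and without Fosl2F/F 1 the means were 31.7% for GC-like cells and 34.1% for cluster 2. Cluster 2 held 30.01% ± 9.29 of the Pdgfd UMIs and led in Fosl2F/F 2 (28.8% against 28.2% in GC-like cells) and Fosl2cKO 1 (39.8% against 33.2%). Luteal-like cells held 21.4% ± 8.48, cluster 2 18.5% ± 9.08 and epithelial-like cells 13.6% ± 2.72 of the Pdgfa UMIs. GC-like cells led for Pdgfa in 1 library, Fosl2F/F 1, luteal-like cells led in Fosl2F/F 2 and Fosl2cKO 2, and cluster 2 led in Fosl2cKO 1. The receptors were divided between stromal-like cells (48.4% ± 2.82 of Pdgfra, 38.3% ± 4.14 of Pdgfrb) and cluster 1 (28.8% ± 2.14 and 27.1% ± 0.956), followed by theca-like cells for Pdgfra (13.4% ± 3.60) and pericyte or smooth muscle-like cells for Pdgfrb (13.8% ± 3.75). With each class weighted to the same number of UMIs, the leading sources became epithelial-like cells for Pdgfa (28.8%), endothelial-like cells for Pdgfb (46.4%), cluster 2 for Pdgfd (25.5%) and pericyte or smooth muscle-like cells for Pdgfrb (55.9%). The shares as captured move with the number of cells of each class that the dissociation released.

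Joint detection of the receptor genes lay close to the product of their separate shares in stromal-like cells and above it in theca-like cells. In stromal-like cells thinned to 2000 UMIs, 441 of 5279 cells held both Pdgfra and Pdgfrb, a mean of 8.27% per library against 9.17% for the product of the 2 shares, with a ratio of 0.88 to 0.94 over libraries. In theca-like cells 50 of 2216 held both, 2.11% against 1.39%, with a ratio of 1.05 to 2.90. Of the 2 theca-like clusters, cluster 15 was the higher in both receptors. Pdgfc and Pdgfd were found together in 425 of 14986 GC-like cells (2.90% against 2.72%, ratio 0.81 to 1.27 over libraries). Pdgfb and Pdgfd were found together in 62 of 893 endothelial-like cells (7.23% against 5.97%, ratio 0.87 to 1.54). The libraries thus lay on both sides of the product for both of these ligand pairs. In GC-like cells Pdgfa lay above the product in all 4 libraries, with Pdgfc (0.87% against 0.62%, ratio 1.26 to 1.55) and with Pdgfd (0.67% against 0.495%, ratio 1.10 to 1.52). Within cumulus-like cells the ratio of Pdgfa with Pdgfc was 0.48 to 1.06, and in cluster 2 that of Pdgfa with Pdgfd was 0.79 to 0.997. In luteal-like cells that of Pdgfc with Pdgfd was 1.07 to 1.57 and that of Pdgfa with Pdgfc 0.56 to 1.67. Thinning left out 4.23% to 20.28% of the cells of a library, and 85.4% of the NK or T-like cells of Fosl2F/F 2.

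No effect of genotype on the PDGF genes passed the test. Of 132 pairs of gene and class, 100 had enough UMIs to be tested, and 0 passed an adjusted p under 0.1 with a log2 difference over 0.25 (edgeR), against 0.14% of all pairs of gene and class and 0.0161% over GC subclasses. DESeq2 passed 1 pair, in a GC subclass, where 0.838% of all pairs with an adjusted p passed, and 0.64% did over classes. Counts were simulated for the same libraries, with the same spread between libraries for all genes of a class and 200 changed genes. On these, edgeR found 11.5% of 2-fold changes in GC-like and stromal-like cells and 16.5% in pericyte or smooth muscle-like cells. Of 4-fold changes it found 93.0%, 89.5% and 76.0% in the same order. False calls numbered 1, 2 and 9 at 2-fold and 21, 18 and 22 at 4-fold. Most 2-fold changes were thus missed in this setting with 2 libraries per group. The differing spread of the real genes was not simulated. At an unadjusted p under 0.05 there were 10 pairs, 4 of 61 over classes, where 5.48% of all pairs reached it, and 6 of 39 over GC subclasses, where 6.03% did. Of the 10, 8 had the higher mean in the libraries labelled Fosl2cKO and 2 in the others. How all pairs at that p divided by direction is not given here. Among the 10, Pdgfra in pericyte or smooth muscle-like cells met the gene filter through the libraries labelled Fosl2cKO alone. Pdgfrb in cumulus-like cells met it through the Fosl2F/F libraries alone. Both libraries labelled Fosl2cKO were above both others in 19 of 61 class pairs, against 19.1% of all pairs, and below in 4, against 13.6%. Over GC subclasses this was the case in 9 of 39 (21.3% of all pairs) and in 5 (13.8%). The median log2 difference of the members was 0.109 over classes, where that of all genes was -0.006, and 0.146 over GC subclasses, where that of all genes was -0.007. Each comparison has 2 libraries per group, so that an exact permutation test of a single value cannot go below p = 0.3333. All pairs come from the same libraries, so these counts are not of independent pairs.

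**Figure D2:**
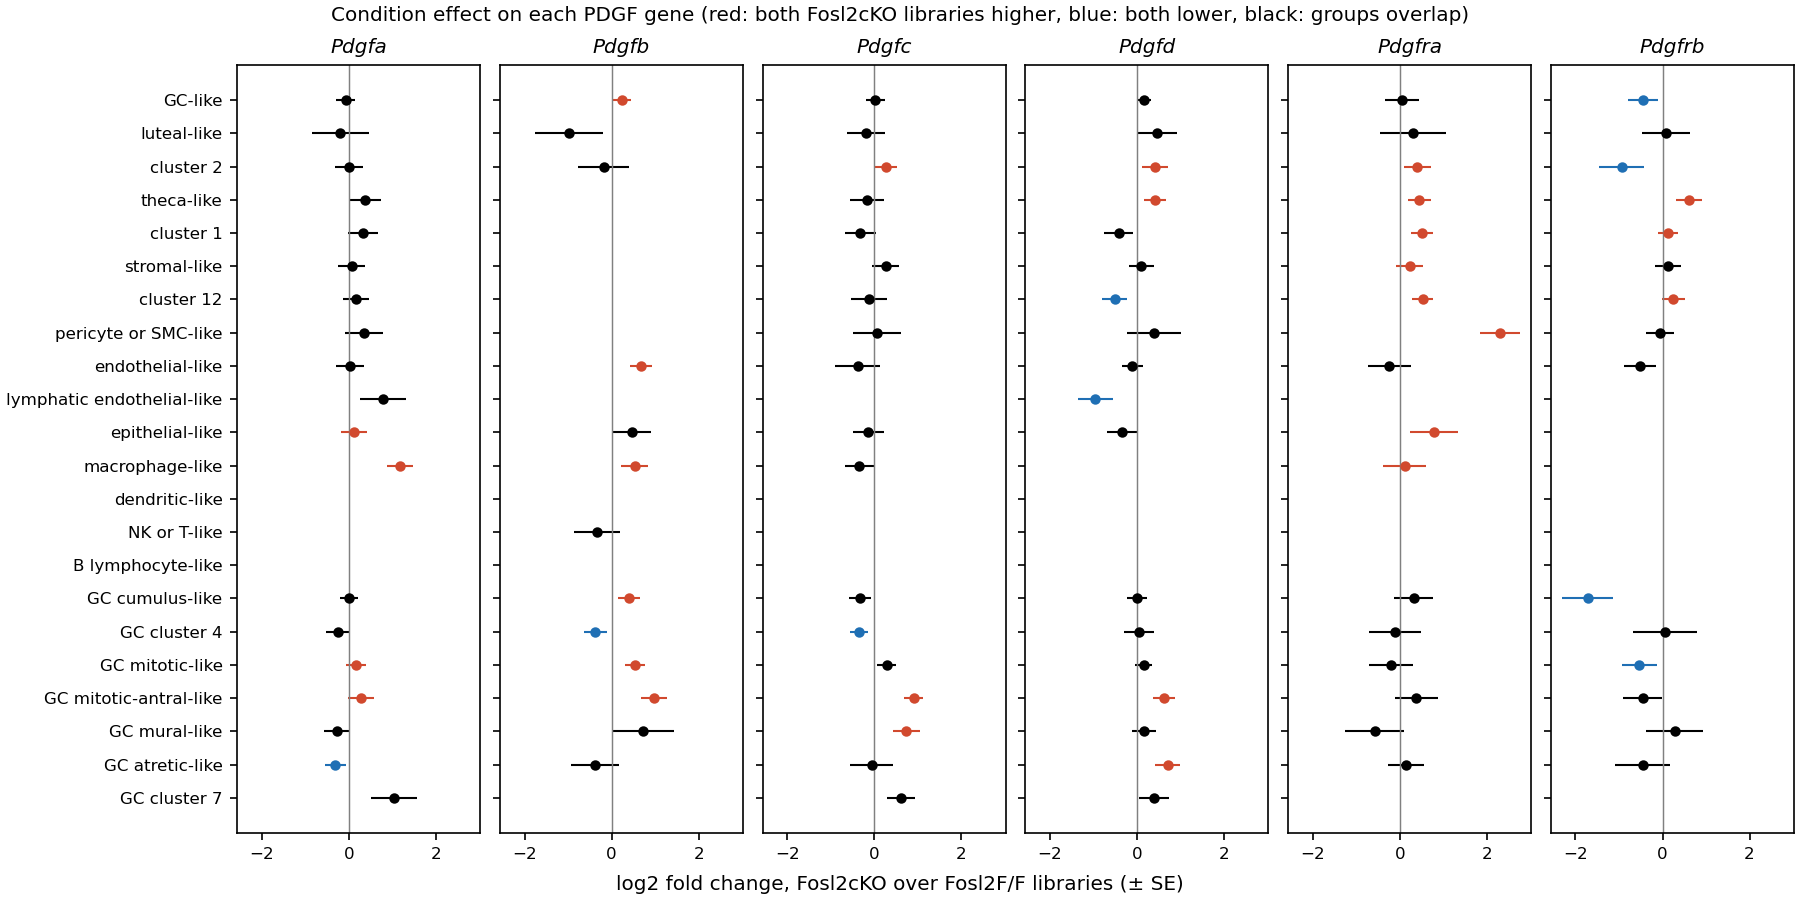
Log2 difference of the libraries labelled Fosl2cKO from the Fosl2F/F libraries (horizontal axis, edgeR estimate with SE as bars) for each PDGF gene in each class and GC subclass tested (rows). Red marks both libraries labelled Fosl2cKO higher, blue both lower and black overlap. Pdgfra in pericyte or smooth muscle-like cells (2.31) lies farthest to the right, a pair that met the gene filter through the libraries labelled Fosl2cKO alone. No point passed the adjusted threshold.

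For the receptors, Pdgfra was higher in both libraries labelled Fosl2cKO in 8 of 11 classes, where 19.1% of all pairs were, and in 0 of 6 GC subclasses, where 21.3% were. Of the 8 classes, 4 (stromal-like, theca-like and clusters 1 and 12) were above the NK or T-like level, and the other 4 (pericyte or smooth muscle-like, epithelial-like, macrophage-like and cluster 2) were not. Among the latter, Pdgfra met the gene filter in pericyte or smooth muscle-like and in epithelial-like cells through the libraries labelled Fosl2cKO alone. In theca-like cells it was 89.1 and 129 against 163 and 155 CPM (log2 difference 0.45 ± 0.27, edgeR adjusted p = 0.9996) and in stromal-like cells 349 and 392 against 406 and 466 CPM (log2 difference 0.22 ± 0.30, edgeR adjusted p = 0.9996). Neither passed. Its largest difference was in pericyte or smooth muscle-like cells, at 5.61 and 7.69 against 37.1 and 31.3 CPM (log2 difference 2.31 ± 0.46, edgeR adjusted p = 0.582). These values rest on few cells: 4 and 7 UMIs in 4 and 6 of 130 and 362 cells, against 32 and 26 UMIs in 7 and 7 of 131 and 116 cells. The pair met the gene filter through the libraries labelled Fosl2cKO alone, so it was tested because those values were high. A single cell held 15 of the 32 UMIs and another 9 of the 26, and without the top cell of each library the values were 4.24 and 5.55 against 20.7 and 21.1 CPM. The cells with a UMI of Pdgfra had summed stromal markers of 3309 and 2427 against 5518 and 5644 CPM, where the other cells of the class had 1696 and 1601 against 1409 and 2343 CPM, and the part of stromal RNA or of doublets in this difference was not tested. The difference was 0.47 without integration, 0.13 with coarser and 0.11 with finer clusters (edgeR adjusted p = 0.9999, 0.999 and 0.999). In these alternatives the class was another set of cells, with 1040 cells without integration and 1042 with coarser clusters, against 739 as reported. Why the difference changed was not tested. With more doublets removed too few UMIs were left for the test. With the clusters as reported, the adjusted p was 0.0676 without Fosl2cKO 1 and 0.00254 without Fosl2cKO 2, where the remaining library of that group was taken to vary like the others, and 0.99987 and 0.9998 without Fosl2F/F 1 and 2. With all 4 libraries it was 0.00535 without the gene filter, where 1.13% of all pairs over classes passed, and 0.0902 with a crossed pairing of the replicate numbers as a block. Pdgfrb in pericyte or smooth muscle-like cells, at 541 and 431 against 344 and 614 CPM, overlapped between groups (log2 difference -0.052 ± 0.32). In cumulus-like cells, where Pdgfrb was at 1.60 and 2.94 against 0.767 and 0.659 CPM, its log2 difference was -1.72 ± 0.59 (edgeR adjusted p = 0.856). This pair met the gene filter through the Fosl2F/F libraries alone.

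Among the ligands, Pdgfb in endothelial-like cells was at 92.5 and 77.6 against 118 and 153 CPM, a log2 difference of 0.68 ± 0.26 (edgeR adjusted p = 0.657). Pdgfa in macrophage-like cells was at 26.5 and 22.2 against 61.3 and 51.3 CPM, a log2 difference of 1.17 ± 0.30 (edgeR adjusted p = 0.349). The groups did not overlap in either case, and neither passed, although Pdgfa in macrophage-like cells passed without the gene filter (log2 difference 1.22, edgeR adjusted p = 0.0388) and without Fosl2F/F 2 (0.98, edgeR adjusted p = 0.0744), where the lone Fosl2F/F library was taken to vary like the others. Pdgfa in epithelial-like cells, its highest class, differed little (0.11 ± 0.31). Pdgfd in cluster 2, its highest class, was at 321 and 319 against 354 and 517 CPM without overlap (0.41 ± 0.29, edgeR adjusted p = 0.9998). In the other direction, Pdgfb in luteal-like cells overlapped between groups at 13.7 and 6.63 against 8.997 and 1.91 CPM (log2 difference -0.98 ± 0.79, edgeR adjusted p = 0.645). Pdgfd in lymphatic endothelial-like cells did not overlap, at 114 and 177 against 65.1 and 98.5 CPM (log2 difference -0.96 ± 0.41, edgeR adjusted p = 0.889), from 30 to 159 cells per library.

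In GC-like cells as a whole, the target of the Cre, the log2 differences were -0.071 ± 0.22 for Pdgfa, 0.23 ± 0.20 for Pdgfb, 0.024 ± 0.22 for Pdgfc and 0.16 ± 0.16 for Pdgfd. The larger differences lay in subclasses. Mitotic-antral-like cells had Pdgfc at 34.7 and 52.0 against 84.3 and 83.5 CPM (log2 difference 0.90 ± 0.22, edgeR adjusted p = 0.352), which was the pair that DESeq2 passed (adjusted p = 0.0849). It also passed in edgeR without the gene filter (adjusted p = 0.00546), where 1.73% of all pairs over GC subclasses did, and with the crossed pairing (adjusted p = 0.0339). Pdgfb in the same cells was at 6.19 and 9.84 against 15.5 and 16.8 CPM (0.98 ± 0.31) and Pdgfd at 14.8 and 16.2 against 21.2 and 28.4 CPM (0.62 ± 0.24), with edgeR adjusted p = 0.401 and 0.454, and 0.0968 for Pdgfb without the gene filter. Mural-like cells had Pdgfc at 19.1 and 33.5 against 41.5 and 48.7 CPM (0.74 ± 0.30, edgeR adjusted p = 1.0). Cumulus-like cells, at the highest level, had Pdgfc at 301 and 249.6 against 186 and 268 CPM (-0.33 ± 0.25), with overlap. Neither subclass could be tested without integration, where the mitotic-antral-like cluster held 229 and 2 against 0 and 4 cells and the mural-like cluster 1513 and 15 against 2 and 19 cells. With integration, mitotic-antral-like cells numbered 431 and 673 against 221 and 201, and mural-like cells 1475 and 1040 against 366 and 326. Atretic-like cells had Pdgfd at 94.2 and 112 against 226 and 129 CPM (0.71 ± 0.29, edgeR adjusted p = 0.898), a difference that became -0.071 without integration of the libraries. Over the alternatives that kept the clusters, with libraries left out among them, it ranged from 0.26 to 1.06.

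Whether the effect of genotype on a member differed between a sending and a receiving class was tested as an interaction for GC-like with stromal-like, GC-like with theca-like, and endothelial-like with pericyte or smooth muscle-like cells. None of 18 member tests passed an adjusted p under 0.1 (edgeR), against 0% of 17499 genes, 0% of 17176 genes and 0.00963% of 10379 genes. At an unadjusted p under 0.05 there were 3 of 18, where 3.51%, 2.81% and 3.23% of all genes reached it in the same order of pairs. They were Pdgfrb for GC-like minus stromal-like (log2 difference of differences -0.56 ± 0.24) and GC-like minus theca-like cells (-1.12 ± 0.28), where GC-like Pdgfrb is at the NK or T-like level, and Pdgfra for endothelial-like minus pericyte or smooth muscle-like cells (-2.64 ± 0.66). The pericyte or smooth muscle-like values of Pdgfra rest on few cells, as given above. DESeq2 was not run on these interactions.

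The 31 other genes of PDGF signalling, from the activating proteases to immediate targets, gave no call either. Of 614 pairs of gene and class 0 passed (edgeR; DESeq2 1), and 37, or 6.03%, had an unadjusted p under 0.05, close to the 5.48% of all pairs over classes and 6.03% over GC subclasses. Of the 37, 23 had the higher mean in Fosl2cKO and 14 in Fosl2F/F libraries. The split of all pairs by direction at that p is not given here. The proteases that process the ligands had their peaks outside GC-like cells. Plat, tissue plasminogen activator, which cuts PDGF-C, was at 617 ± 234 CPM in pericyte or smooth muscle-like, 342 ± 167 CPM in lymphatic endothelial-like and 325 ± 37.9 CPM in stromal-like cells (SD, n = 4), and at 982 ± 199 CPM in oocyte-like cells, which were too few to test. Plau, urokinase, which cuts PDGF-D, was at 88.5 ± 20.1 CPM in macrophage-like, 71.7 ± 40.3 CPM in lymphatic endothelial-like and 71.3 ± 17.8 CPM in cluster 1 cells. St14, matriptase, was at 39.1 ± 8.22 CPM in epithelial-like cells and at most 11.7 CPM on average in the other classes. Furin, which processes PDGF-A and PDGF-B, was at 95.8 ± 42.7 CPM in NK or T-like, 80.9 ± 30.04 CPM in luteal-like and 55.5 ± 5.23 CPM in endothelial-like cells, with 143 ± 73.3 CPM in oocyte-like cells, against 16.8 ± 0.916 CPM in GC-like cells.

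Genes most like each member over the 15 class means of log2(CPM + 1) were looked for among 11201 genes. The means share libraries and classes, and the values are a description. For Pdgfra they were Ptprq (Pearson r 0.98), Svep1 (0.97) and Dnm1 (0.97), and for Pdgfrb Cd248 (0.98) and Pth1r (0.98). For Pdgfa they were Cpeb3 (0.95) and Slc45a4 (0.92), and for Pdgfd Wasl (0.94), Nckap1 (0.92) and Nfe2l1 (0.92). For Pdgfb they were Casp8 (0.90) and Snx3 (0.89), and for Pdgfc Pkp2 (0.86), Rimklb (0.83) and Dok6 (0.83). Among the members, the receptors were most alike (r 0.78), Pdgfa was more like Pdgfc (0.67) and Pdgfd (0.62) than like Pdgfb (0.18), and Pdgfb ran opposite to Pdgfra (-0.58).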

How the data were processed

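Reads had been aligned by the authors with CellRanger (GRCm38), and they deposited raw UMI counts, whole numbers for each gene in each barcode. Per the paper's methods CellBender was applied to the raw matrices, but whether the deposited counts include it is not given in the sources used here. Per the labels the submitters' processing used Cell Ranger and Seurat 4.1.0. No barcode held fewer than 500 UMIs, and 0 columns of values were left unused.

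The filters of the methods were applied: 500 genes or more, more than 1000 UMIs, and mitochondrial and hemoglobin UMIs below 10% and 0.1%. The cells with the highest Scrublet scores (scanpy 1.11.5) were removed as doublets at 0.8% per 1000 cells, which took 614, 4723, 412 and 450 cells in the order Fosl2F/F 1 and 2, Fosl2cKO 1 and 2. Libraries were normalized with SCTransform (sctransform 0.4.2), integrated and clustered with Seurat 5.3.0 on 30 dimensions and 3000 features. A cluster took the name of a class whose marker score was at least 0.2, led the next by 0.1 and rested on at least 3 markers.

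UMIs were summed per class and library. For genotypes, edgeR 4.0.16 (glmQLFTest, TMM, filterByExpr, Benjamini-Hochberg over all genes tested) was used, with the thresholds of the study's pathway analysis (adjusted p 0.1, log2 difference 0.25). For classes, the library was a term and the thresholds were 0.05 and 1; 95% intervals use the t distribution with the residual degrees of freedom. Shares of cells with a UMI were taken after thinning to 2000 UMIs. Promoter windows are those of RefSeq (GRCm38.p6), and those of 4 of the 6 members were used. Member windows on chromosome 18, where Pdgfrb lies, were left out, a step not applied to the windows of all genes. The tests were tried on simulated counts. The genes named are the 6 members, Fosl2, the 3 genes most like each member among those with at least 20 CPM in a class, the 4 ligand-processing genes and the leading genes of clusters. Of the genes most like a member, 3 are not reported here. The members, lists and tests were chosen with earlier results of these data known. Alternatives were DESeq2 1.42.0, no gene filter, a depth of over 2000 UMIs, under 5% mitochondrial UMIs, more doublets removed, no integration, coarser and finer clusters, each library left out, other thresholds and the replicate number as a block.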

Additional observations from a re-analysis of the deposited data

Results flagged for a closer look

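The differences between genotypes of Pdgfa, Pdgfb, Pdgfc and Pdgfd below had both libraries labelled Fosl2cKO on the same side of both Fosl2F/F libraries, and for each gene some classes lay one way and others the opposite way. Classes were considered where the level was above that of NK or T-like cells, or, for Pdgfb, of theca-like cells. Among these, Pdgfra and Pdgfrb had classes with both libraries labelled Fosl2cKO above both others but none with both below. For Pdgfa, Pdgfb and Pdgfc the lower side is 1 GC subclass each. Of all pairs of gene and class, 19.1% had both libraries labelled Fosl2cKO above and 13.6% below the others over classes, and 21.3% and 13.8% over GC subclasses; the members had 19 and 4 of 61, and 9 and 5 of 39. The difference between classes was not tested for these pairs, and none of the values passed the adjusted threshold in edgeR.

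Pdgfa was higher in the libraries labelled Fosl2cKO in macrophage-like (log2 difference 1.17), epithelial-like (0.11) and GC mitotic-like cells (0.17), and lower in GC atretic-like cells (-0.31). Pdgfb was higher in endothelial-like (0.68), macrophage-like (0.53), GC-like (0.23), GC mitotic-antral-like (0.98), GC mitotic-like (0.53) and GC cumulus-like cells (0.39), and lower in GC cluster 4 (-0.37). Pdgfc was higher in cluster 2 (0.26), GC mitotic-antral-like (0.90) and GC mural-like cells (0.74), and lower in GC cluster 4 (-0.34). Pdgfd was higher in theca-like (0.40), cluster 2 (0.41) and GC atretic-like cells (0.71), and lower in lymphatic endothelial-like cells (-0.96) and cluster 12 (-0.52).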

How the results depend on the processing

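Of 100 member and class pairs, 0 passed for genotype, and the count was 1 with DESeq2, 4 without the gene filter (Pdgfa in macrophage-like, Pdgfra in pericyte or smooth muscle-like, and Pdgfb and Pdgfc in GC mitotic-antral-like cells), 2 with more doublets removed (Pdgfc and Pdgfd in GC cluster 7) and 0 to 3 when a library was left out (1 without Fosl2F/F 2, 1 without Fosl2cKO 1 and 3 without Fosl2cKO 2). For the 18 interactions, 0 passed, and 2 passed without the gene filter, for which the share of all genes that passed is not given here. Of the 10 pairs with an unadjusted p under 0.05, Pdgfd in GC atretic-like cells had the other sign without integration, at -0.071. Over all 100 pairs, 55 had the other sign in at least 1 alternative (109 of 1413 comparisons), none of them past the threshold. The cause was not tested in any of these cases. With the gene filter off, more pairs are tested, 131 in place of 100. For more doublets removed and for a library left out, the share of all pairs that passed is not given here. The member counts of these alternatives therefore cannot be read against it.

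With each class weighted equally, GC-like cells held 2.42% of Pdgfa, 5.36% of Pdgfb, 20.5% of Pdgfc and 5.73% of Pdgfd UMIs, against 25.5%, 57.3%, 76.1% and 38.4% as captured, and stromal-like cells held 38.1% of Pdgfra and 14.6% of Pdgfrb, against 48.4% and 38.3%.

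The libraries share replicate numbers only. Deviations from the group means of same-numbered libraries had correlations of -0.16 to 0.11 over classes and -0.29 to -0.042 over GC subclasses, and with the replicate number as a block 0 pairs passed. A crossed pairing of the numbers, chosen after seeing the data, gave 2 pairs (Pdgfra in pericyte or smooth muscle-like and Pdgfc in GC mitotic-antral-like cells). The share of all pairs that passed with it is not given here, so the 2 pairs cannot be read against it.

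Of 449 comparisons for the 35 class contrasts that passed as reported or in an alternative, 432 kept their direction and their side of the threshold, 11 passed where they had not and 6 no longer passed. Of all 48 contrasts, 9 had the other sign in at least 1 alternative (31 of 611 comparisons), none past the threshold; among them, Pdgfd in GC-like against theca-like cells ranged from -0.41 to 0.14 and in mural-like against cumulus-like cells from -0.16 to 0.50. Of 157 comparisons for 11 single genotype differences, Fosl2 in GC-like cells among them, 146 kept both and 10 newly passed. With theca-like in place of NK or T-like cells as the reference, an alternative added after seeing the data, the classes above it in CPM went from 1 to 10 for Pdgfb; for the other genes, with the lowest class as the reference, the count moved by at most 1. With coarser clusters the differences of Pdgfrb from theca-like cells moved most, from 1.67 to 4.83 for stromal-like, from -4.38 to -1.02 for GC-like and from -3.94 to -0.51 for luteal-like cells, the last no longer past the threshold. Lymphoid classes hold few cells and few UMIs, so that their levels are imprecise. NK or T-like cells held 43 UMIs of Pdgfb, 33 of Pdgfd, 18 of Pdgfa, 18 of Pdgfc, 17 of Pdgfra and 4 of Pdgfrb.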
